A study of Mus musculus with 5 samples.

Results

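NRF2, encoded by Nfe2l2, is a transcription factor that switches on antioxidant and detoxifying genes, and Keap1 encodes the adaptor protein that holds NRF2 low until oxidants or electrophiles modify it. The genes described here are these regulators, 6 genes known as NRF2 targets and 2 further antioxidant enzymes, 10 of the 13966 gene symbols in the table. The members were taken by symbol, and all 10 had a row. NRF2 acts by binding antioxidant response elements in its target genes together with small MAF proteins. In liver its targets are known for supplying glutathione, recycling thioredoxin and clearing reactive compounds. Catalase (Cat) is the hydrogen peroxide enzyme of peroxisomes, the organelle that agonists of peroxisome proliferator-activated receptors (PPARs) enlarge in mouse liver.

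RNA was sequenced from hepatocytes of ICR mice, an outbred stock, which had received a fluorescent probe of fatty acid oxidation and whose liver cells were parted by fluorescence-activated sorting. The control had a negative and a positive gate of probe signal, and hepatocytes labelled as with bezafibrate, a PPAR agonist, had a negative, a positive and a high gate. Each of these 5 groups is 1 library. All groups carried the probe. The sources used here do not state how many mice there were, their sex and age, or how bezafibrate was given, at what dose or for how long, and treatment cannot be told apart from mouse. Below, values of a gene run through the 2 control libraries (negative gate, then positive) and then the 3 bezafibrate libraries (negative, positive, then high). With no replicate, every difference below describes these libraries, no p-value is given, and intervals are 95% intervals of counting error only.

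The recovered depth lay between 5056884 and 7146578 reads per library. Rn45s, the ribosomal RNA precursor gene, held 34.8% to 36.3% of reads in the control libraries and 10.5% to 18.5% in the bezafibrate libraries. Hepatocyte markers were high in all libraries, with albumin (Alb) at a normalised read count of 23064 to 72188. Most markers of other cells were low. Reln, of the stellate cell list, was not, at 93.4 and 106 in the control libraries and 28.5 to 29.8 in the bezafibrate libraries. No other gene of the stellate cell list was above 4.72 in any library. The 8 Kupffer cell and macrophage markers found in the table, of 12 listed, summed to 72.3 and 76.3 in the control libraries and to 114 to 145 in the bezafibrate libraries, nearly all of it the iron exporter Slc40a1, which hepatocytes also express. The highest value of any other gene of that list was 5.39. In bulk libraries, fewer cells of a type and less RNA per cell cannot be told apart.

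The stretches of 250 bases before the transcription start are shown for 4 members because they carry matches to the NRF2 motif or to the related AP-1 motif. With bezafibrate the RNA of Srxn1 and Txnrd1 was lower, that of Sod1 was higher and that of Gclm overlapped between treatments. Sequences are from RefSeq, build GRCm38.p6, a C57BL/6J genome, written 5′ to 3′ on the strand of the gene, and capitals mark the matched bases. They follow in the order Srxn1, Txnrd1 (the second of 3 annotated starts), Gclm and Sod1.
Srxn1, chr2:152105274-152105523, plus strand: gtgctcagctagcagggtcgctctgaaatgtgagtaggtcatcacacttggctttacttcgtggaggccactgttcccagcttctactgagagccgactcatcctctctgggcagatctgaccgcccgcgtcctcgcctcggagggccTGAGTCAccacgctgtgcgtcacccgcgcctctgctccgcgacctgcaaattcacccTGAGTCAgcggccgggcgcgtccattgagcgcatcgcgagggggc
Txnrd1, chr10:82858956-82859205, plus strand: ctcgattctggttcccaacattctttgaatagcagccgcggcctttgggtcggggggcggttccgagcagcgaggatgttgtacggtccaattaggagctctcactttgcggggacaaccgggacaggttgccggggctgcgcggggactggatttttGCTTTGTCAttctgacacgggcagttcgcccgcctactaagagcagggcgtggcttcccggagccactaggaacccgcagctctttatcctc
Gclm, chr3:122245307-122245556, plus strand: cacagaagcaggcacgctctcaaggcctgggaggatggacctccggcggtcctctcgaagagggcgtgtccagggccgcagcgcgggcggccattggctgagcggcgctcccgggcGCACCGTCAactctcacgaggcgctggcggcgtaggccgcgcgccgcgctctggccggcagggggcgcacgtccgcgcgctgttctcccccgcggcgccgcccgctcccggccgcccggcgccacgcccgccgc
Sod1, chr16:90220512-90220761, plus strand: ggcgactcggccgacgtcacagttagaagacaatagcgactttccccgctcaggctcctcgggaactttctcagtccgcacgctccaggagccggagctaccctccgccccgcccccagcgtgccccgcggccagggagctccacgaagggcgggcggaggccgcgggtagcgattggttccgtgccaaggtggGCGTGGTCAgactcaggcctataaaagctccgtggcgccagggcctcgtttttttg
The motifs searched on both strands were TGACNNNGC, the core of the antioxidant response element, and TGANTCA, the AP-1 site. The patterns can overlap in one stretch, and no overlap of the patterns as searched occurred in these windows. The table held 10 starts of 8 members, with Hmox1 and Gclc not among them. The antioxidant response element core matched in 4 of the 8 members, namely Nfe2l2, Gclm, Txnrd1 and Sod1, at 4 of 10 starts. For Nfe2l2 alone, the first bases after the start were not found in an annotated transcript of the gene. The place of its window is thus less certain. Among all 32851 starts of the table, 10.2% held it in the same window. The AP-1 site matched only in Srxn1 of these members, in which it occurred at 2 places, against 6.75% of all starts. The second of these, with the bases after it, reads TGAGTCAGC. It differs from the searched core only by a G in place of the fixed C. The search therefore does not show that the Srxn1 window lacks an NRF2 element. Keap1, Nqo1 and Cat held neither pattern in this window. A match is a run of letters and was not tested as a site.

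Per kilobase of transcript, the members spanned a wide range of levels. The mean over the 5 libraries was 858 normalised read counts per kilobase for Cat, 341 for Sod1, the cytosolic superoxide dismutase, and 139 for Gclc, the catalytic subunit of the enzyme that starts glutathione synthesis. Hmox1, heme oxygenase, followed at 61.7 and Nfe2l2 at 46.5. Txnrd1, thioredoxin reductase, Gclm, the modifier subunit paired with Gclc, and Srxn1, sulfiredoxin, lay close together at 38.9, 35.0 and 34.0. Keap1 was lower at 14.2. Nqo1, a quinone reductase often used as a readout of NRF2, had 2.01 and only 7 to 38 reads per library. Taking merged exons in place of the median transcript length gave 34.0 for Srxn1, 32.7 for Txnrd1 and 20.6 for Gclm, so the order of these neighbours depends on the length used.

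**Figure D1:**
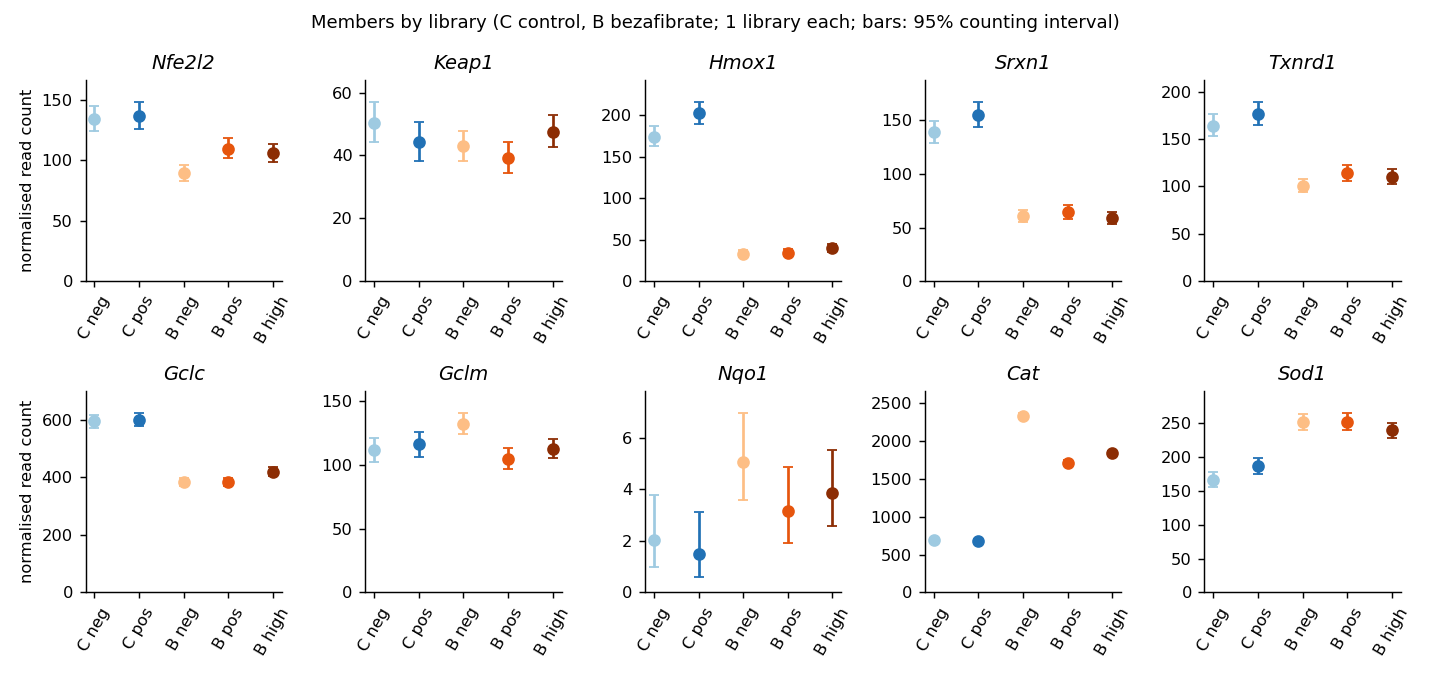
Normalised read count (vertical axis, from 0) of each of the 10 members in the 5 libraries (C control, B bezafibrate; negative, positive and high gates), with bars for the 95% counting interval. Hmox1 and Srxn1 lie lower in all 3 bezafibrate libraries and Cat lies higher, while Keap1 and Gclm overlap between the treatments under the deposited scaling.

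Between treatments the members divided. Genes were analysed when their mean normalised read count reached 5.02, which 8973 genes and 9 of the members did, Nqo1 being the exception. A pseudocount of 1.0035 was added before taking log2, and a gene was called when it then differed by 2-fold or more. In the negative gate, 1 of the 9 members was called higher with bezafibrate, where 10.2% of all genes analysed were, and 2 were called lower, where 5.86% were. In the positive gate 1 was called higher, against 4.94% of genes, and 2 lower, against 2.91%. They were Cat on the higher side and Hmox1 and Srxn1 on the lower side in both gates. Because members were chosen with earlier results of these data known, these counts beside the shares are no test. The median difference of the 9 members was -0.58 in the negative gate and -0.31 in the positive gate, beside 0.02 and 0.00 for all genes analysed. The split of calls over all genes moved with scaling: of genes called, 63.6% were higher in the negative gate and 62.9% in the positive gate as deposited, 84.5% and 86.3% with column totals made equal, and 34.1% and 47.8% with totals without Rn45s made equal. In 5 of the 9 members all 3 bezafibrate libraries lay below both control libraries, as in 33.8% of all genes analysed, and in 2 of the 9 all lay above, as in 35.7%. These were Nfe2l2, Hmox1, Gclc, Txnrd1 and Srxn1 below and Cat and Sod1 above, and each kept its place under 4 other scalings. The shares of all genes make non-overlap a common pattern in the table.

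Of the regulators, Nfe2l2 RNA was lower with bezafibrate and Keap1 RNA was nearly level. Nfe2l2 (chromosome 2, 75675513 to 75704641) lay at 134 and 136 in the controls and at 89.0, 109.5 and 106 with bezafibrate, as normalised read counts. The bezafibrate libraries did not reach the control range. The fold was 0.664 in the negative gate (0.595 to 0.741) and 0.803 in the positive gate (0.720 to 0.895). With column totals made equal, the log2 difference of Nfe2l2 in the positive gate was -0.11, from -0.31 as deposited. Of all genes analysed, 17.5% had a lower difference in the negative gate and 25.8% in the positive gate. Keap1 (chromosome 9, 21229730 to 21239361) had 50.3 and 44.2, then 42.9, 39.1 and 47.6, with overlapping groups under the deposited scaling. Its folds of 0.853 (0.720 to 1.01) and 0.884 (0.732 to 1.07) were within counting error, and their sign turned when column totals were made equal. A gene antisense to Keap1 overlaps it. The libraries keep strand, but whether the counting used it is not stated.

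Hmox1 had the largest difference of the members. The enzyme breaks down heme to biliverdin, iron and carbon monoxide, and its gene responds to heme and to many stresses besides NRF2. Hmox1 (chromosome 8, 75093621 to 75100589) had 175 and 203 in the controls. With bezafibrate it had 33.1, 34.2 and 39.6. Every bezafibrate library lay far below both control libraries. The fold was 0.189 in the negative gate (0.164 to 0.218) and 0.169 in the positive gate (0.145 to 0.196), from 217 to 941 reads per library. Of the 8973 genes analysed, 0.256% had a lower difference in the negative gate and 0.100% in the positive gate. Hmox1 was listed with its lower values in these data already known, so this rank is a description and no test.

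Srxn1 encodes sulfiredoxin, which repairs over-oxidised peroxiredoxins. Srxn1 (chromosome 2, 152105516 to 152111376) had 139 and 155 in the controls, and 60.9, 64.3 and 59.0 with bezafibrate. The 3 bezafibrate libraries were alike and all lay under the controls. The fold was 0.439 (0.389 to 0.495) in the negative gate and 0.415 (0.367 to 0.470) in the positive gate. With column totals made equal, the log2 difference in the negative gate was -0.94, which no longer counts as 2-fold.

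Txnrd1 and Gclc were lower by a similar and smaller amount. Txnrd1, which reduces thioredoxin with NADPH, lies on chromosome 10, 82833951 to 82897712. It had 164 and 177 in the controls and 101, 114 and 110.1 with bezafibrate. Its folds were 0.614 (0.556 to 0.679) and 0.648 (0.586 to 0.717) in the negative and positive gates. The span of Txnrd1 also holds Eid3 on the same strand and 2 noncoding genes on the other, so its reads are less certain. Gclc (chromosome 9, 77754535 to 77794485) had 594 and 599.5, then 384, 384 and 420.2. Its folds were 0.646 (0.614 to 0.681) and 0.640 (0.606 to 0.676). Neither gene reached 2-fold, and for both all bezafibrate libraries lay below both controls, under the deposited scaling and under 4 others.

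Gclm did not follow Gclc. Gclm (chromosome 3, 122245557 to 122270732) had 111 and 116, then 132, 104 and 112, with overlapping groups. The overlap depended on scaling: all bezafibrate libraries lay above both controls with column totals made equal and below them with totals without Rn45s made equal, where Keap1 lay below too. Its folds were 1.18 (1.07 to 1.32) and 0.901 (0.803 to 1.01) in the 2 gates, and both signs turned under 1 of 4 other scalings. The Gclm span overlaps a pseudogene on its strand and a noncoding gene on the other. Ratios of reads within a library do not depend on scaling. Gclc over Gclm was 5.34 (4.87 to 5.86) and 5.17 (4.71 to 5.68) in the controls. With bezafibrate it was 2.91 (2.71 to 3.13), 3.67 (3.37 to 4.01) and 3.74 (3.47 to 4.04). The proportion of catalytic to modifier subunit RNA was thus lower in each bezafibrate library, without overlap of the counting intervals.

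Nqo1 was too low for a firm value. Nqo1 (chromosome 8, 107388225 to 107403206) had 2.05 and 1.51 in the controls and 5.07, 3.15 and 3.86 with bezafibrate. All bezafibrate libraries lay above both controls, in the opposite direction to Hmox1 and Srxn1. The fold was 2.47 (1.21 to 5.55) in the negative gate and 2.09 (0.848 to 5.85) in the positive gate, and the gene was below the filter.

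**Figure D2:**
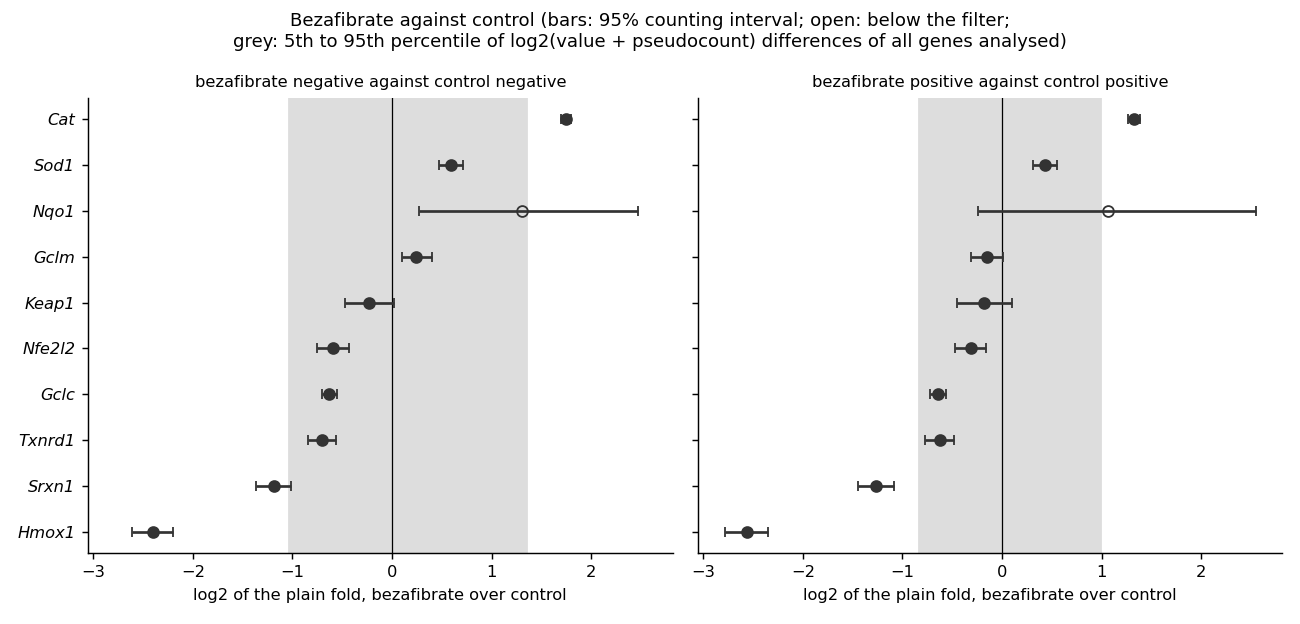
Log2 of the plain fold of bezafibrate over control (horizontal axis) for the 10 members in the negative and the positive gate, with 95% counting intervals; the grey band spans the 5th to the 95th percentile of differences of log2(value + pseudocount) of all genes analysed. Hmox1, Srxn1 and Cat lie outside the band in both gates, the other members analysed inside it, and Nqo1 (open) was below the filter.

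Cat was the member with the largest difference on the higher side. Cat (chromosome 2, 103453849 to 103485160) had 695 and 686 in the controls, a difference within counting error. With bezafibrate it had 2333, 1719 and 1845, highest in the negative gate. The fold was 3.36 (3.23 to 3.48) in the negative gate and 2.51 (2.41 to 2.61) in the positive gate. For scale, Ehhadh, a PPARalpha target of peroxisomal beta-oxidation, was 24.9-fold and 14.5-fold higher, and Alb 2.97-fold and 2.09-fold. Reads of Cat per read of Alb were 0.0286 (0.0276 to 0.0296) and 0.0297 (0.0287 to 0.0308) in the control libraries. With bezafibrate they were 0.0323 (0.0318 to 0.0328), 0.0357 (0.0350 to 0.0364) and 0.0338 (0.0333 to 0.0344). Cat thus lay higher by slightly more than Alb, without overlap of the counting intervals.

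Sod1 converts superoxide to hydrogen peroxide in the cytosol. Sod1 (chromosome 16, 90220754 to 90226329) had 166 and 186, then 252, 251 and 239. All 3 bezafibrate libraries lay above both controls. The fold was 1.51 (1.39 to 1.64) in the negative gate and 1.35 (1.24 to 1.47) in the positive gate. Scaf4 overlaps Sod1 on the opposite strand, so part of these reads is uncertain.

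Differences between treatments ran with transcript length. When genes were put in 5 equal bins by transcript length, the bin of shortest transcripts had a median log2 difference of 0.39 and the bin of longest -0.16 in the negative gate. For the positive gate these medians were 0.26 and -0.11. Hmox1 and Sod1 fall in the shortest bin. Relative to the median of its own bin, Hmox1 was -2.76 and -2.79, Srxn1 -1.15 and -1.24, and Cat 1.66 and 1.28 in the negative and positive gates. Sod1 was 0.20 and 0.17 on that scale, down from 0.59 and 0.43. The difference of Sod1 was thus close to that of other short genes, while those of Hmox1, Srxn1 and Cat were not reduced in the same way. This adjustment was chosen after the data were seen, and the part of length or RNA quality in these values was not tested.

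Immediate early and stress genes of cell dissociation were also lower with bezafibrate. The 14 genes of that list summed to 6079 and 6102 in the control libraries and to 2929 to 3511 in the bezafibrate libraries. Of 13 analysed, 11 were below 0 in each gate, with median log2 differences of -0.97 and -0.70. Of all genes analysed, 51.4% were above 0 in the negative gate and 50.4% in the positive gate. In the negative gate 5 of the 13 were called lower, where 5.86% of all genes were. In the positive gate 1 was, where 2.91% of all genes were. Jun, an AP-1 subunit, had 1333 and 1403 in the controls and 576, 751 and 736 with bezafibrate. Srxn1 reads per Jun read were 0.104 and 0.110 in the controls, and 0.106, 0.0856 and 0.0802 with bezafibrate. Hmox1 reads per Jun read were 0.131 and 0.145 in the controls and 0.0455 to 0.0574 with bezafibrate. Srxn1 per Jun read was thus nearly level between treatments in the negative gate only. In the positive gate it was lower with bezafibrate, at 0.0856 (0.0772 to 0.0947) against 0.110 (0.102 to 0.119). Hmox1 per Jun read was lower in both gates. These ratios were chosen after values were seen. Of the Kupffer cell list, Slc40a1 was higher with bezafibrate, at 67.3 and 67.9 against 109 to 140.0. Cd68, a macrophage marker of that list below the filter, had 2.26 and 5.39 in the controls and 1.60, 1.26 and 1.47 with bezafibrate. Its folds were 0.708 (0.286 to 1.77) in the negative gate and 0.234 (0.0912 to 0.535) in the positive gate. Csf1r of the same list, also below the filter, was at 0.821 and 1.29 against 0.933, 1.73 and 2.53, within counting error. Clec4f, a defining marker of Kupffer cells, was at 0.616 and 0.216 in the controls and 0.133, 0.473 and 1.73 with bezafibrate. Its fold of bezafibrate high over negative was 13.0 (1.95 to 552), from values below the filter. C1qa, C1qb, C1qc and Cd5l of the same list stayed at or below 1.07 in every library. Reln, of the stellate cell list, was called lower in both gates, at 93.4 and 106 against 28.5 to 29.8. It was the only gene of that list above 4.72. The part of the stress genes and of these markers in the values of Hmox1 and Srxn1 was not tested.

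The wider pathway was described by lists of genes, beside all genes analysed, of which 51.4% were above 0 in the negative gate and 50.4% in the positive gate, with the shares called given above. Of 13 NRF2 regulators, 9 were below and 4 above 0 in each gate, with medians of -0.34 and -0.21, and 0 were called in either direction. Under other scalings the first median stayed below 0, and the second came to 0.00 with column totals made equal. Mafg, a small MAF partner of NRF2, had 115 and 119 in the controls and 57.1, 76.4 and 75.7 with bezafibrate, a fold of 0.497 (0.437 to 0.565) and 0.641 (0.566 to 0.726). Cul3, the ubiquitin ligase scaffold that acts with KEAP1, was 1.57-fold and 1.52-fold. Sqstm1, which can sequester KEAP1, was 0.952-fold and 0.738-fold.

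Among thioredoxin and peroxiredoxin genes, several were called higher while Srxn1 was called lower. Of 19 genes in the list, 13 were above 0 and 6 called higher in the negative gate, where 10.2% of all genes were called higher. In the positive gate 14 were above 0 and 4 called higher, against 4.94% of all genes, and the medians were 0.64 and 0.49. Srxn1 was the 1 member of the list called lower in each gate. Prdx1, a cytosolic peroxiredoxin, had 41.1 and 45.3 in the controls and 251, 153 and 168 with bezafibrate, or 6.12-fold (5.28 to 7.11) and 3.37-fold (2.90 to 3.93). Txn1, cytosolic thioredoxin, was 5.53-fold (4.04 to 7.75) and 4.29-fold (3.14 to 5.98). The next values set each member against its partner within a library.

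Srxn1 reads per Prdx1 read were 3.38 (2.88 to 3.98) and 3.42 (2.93 to 4.01) in the controls. With bezafibrate they were 0.243 (0.219 to 0.269), 0.421 (0.375 to 0.474) and 0.351 (0.314 to 0.391). Txnrd1 reads per Txn1 read were 18.2 (13.4 to 25.2) and 17.4 (13.0 to 23.9) in the controls and 2.02 to 2.63 with bezafibrate. Both ratios were thus several-fold lower in every bezafibrate library. Cat reads per Sod1 read were 4.18 (3.87 to 4.52) and 3.69 (3.42 to 3.98) in the controls. With bezafibrate they were 9.28 (8.85 to 9.73), 6.85 (6.50 to 7.22) and 7.72 (7.35 to 8.11). The 2 members both lay higher with bezafibrate, Cat by more than Sod1. The pairs were chosen after values were seen, and the ratios were not adjusted for transcript length.

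**Figure D3:**
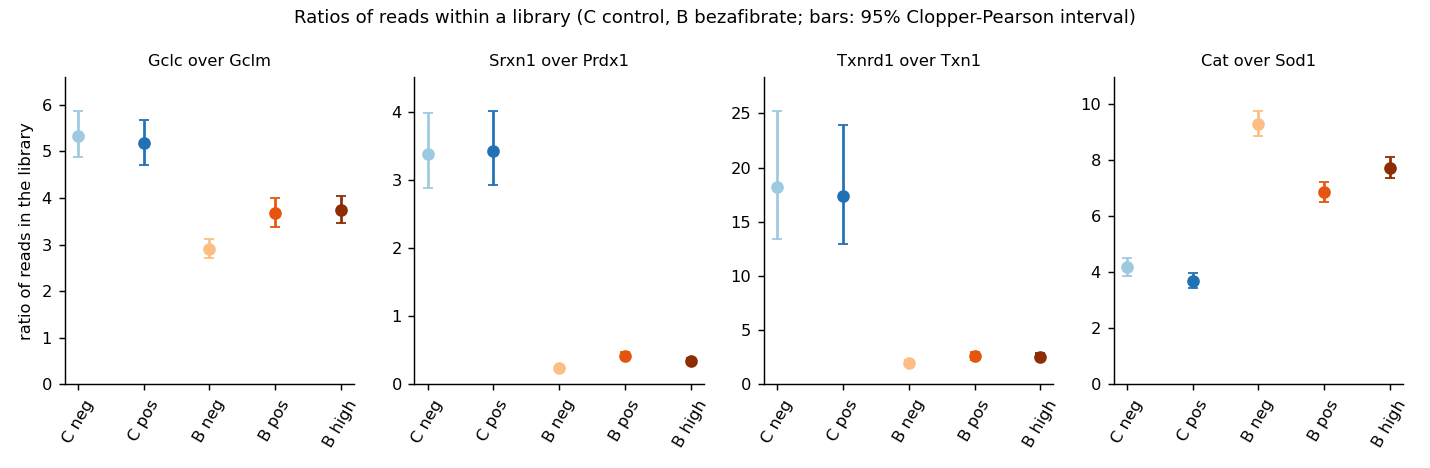
Ratio of reads of 2 genes within a library (vertical axis, from 0) for Gclc over Gclm, Srxn1 over Prdx1, Txnrd1 over Txn1 and Cat over Sod1 in the 5 libraries (C control, B bezafibrate), with 95% Clopper-Pearson intervals. The first 3 ratios are lower and the last is higher in all 3 bezafibrate libraries.

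Other antioxidant lists had medians above 0, under the deposited and 4 other scalings unless stated. Differences ran with transcript length, as given above. None of the pathway lists was adjusted for it, and its part in their medians was not tested. Of 18 glutathione transferases analysed, the negative gate had 8 called higher and 1 lower and the positive gate 3 and 1, with medians of 0.82 and 0.70. Mgst1, a microsomal transferase, was 4.43-fold (4.20 to 4.67) and 2.53-fold (2.39 to 2.68), and Gstk1, of mitochondria and peroxisomes, 5.65-fold and 5.53-fold. Gstm1, the most abundant in the control libraries, was 1.11-fold and 0.820-fold. Reads of the Gsta, Gstm and Gstp genes can be split among near-identical copies, which makes single values uncertain. Glutathione peroxidase Gpx1 was 2.17-fold (2.07 to 2.28) and 1.90-fold, and the other peroxidase analysed, Gpx4, 1.52-fold and 1.51-fold.

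The list of glutathione synthesis and recycling was mixed, with medians of 0.16 and 0.15 over 12 genes and 1 call, Chac2, in the negative gate, where the median was -0.10 with totals without Rn45s made equal. Gss, the second enzyme of synthesis, was 1.40-fold and 1.46-fold, and Gsr, which recycles oxidised glutathione, 1.56-fold and 1.34-fold. Gclc was thus lower while Gss and Gsr were higher. Of 4 superoxide dismutase and catalase genes analysed, 2 were called higher in the negative gate, Cat and Sod2, the mitochondrial dismutase, at 2.49-fold. In the positive gate 1 was, Cat, with Sod2 at 1.90-fold. Ccs, the copper chaperone of Sod1, was 0.698-fold and 0.891-fold.

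Of 15 other detoxification genes analysed, 5 were called higher in the negative gate and 2 in the positive gate, and 0 lower, with medians of 0.58 and 0.38. Aldh1a1, an aldehyde dehydrogenase, was 3.54-fold and 2.78-fold, while Osgin1, which responds to oxidants, was 0.644-fold (0.610 to 0.679) and 0.745-fold (0.705 to 0.787). Of 8 NADPH-supplying genes, 2 were called higher in the negative gate, Idh1 at 3.45-fold among them. In the positive gate Idh1 was called higher and G6pdx, of the pentose phosphate pathway, lower at 5.04 against 11.9. G6pdx lay near the filter value there, with a fold of 0.425 (0.266 to 0.669). Its negative gate fold of 0.763 (0.490 to 1.19) was within counting error. Of 6 genes for quinones, heme and iron, the quinone reductase Nqo2 was called higher in the negative gate at 2.99-fold, and Hmox1 lower in both gates. The medians of that list were 0.43 and 0.01, and the second was below 0 under 3 of 4 other scalings. The ferritin genes Ftl1 and Fth1 were 1.16-fold and 1.39-fold in the negative gate. Their positive gate folds were 0.973 and 1.04. Uox, the peroxisomal urate oxidase, which makes hydrogen peroxide, was called higher in both gates, at 3.92-fold and 2.91-fold. It was the most extreme of 10 genes of peroxisomal hydrogen peroxide sources, whose medians were 0.31 and 0.18.

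**Figure D4:**
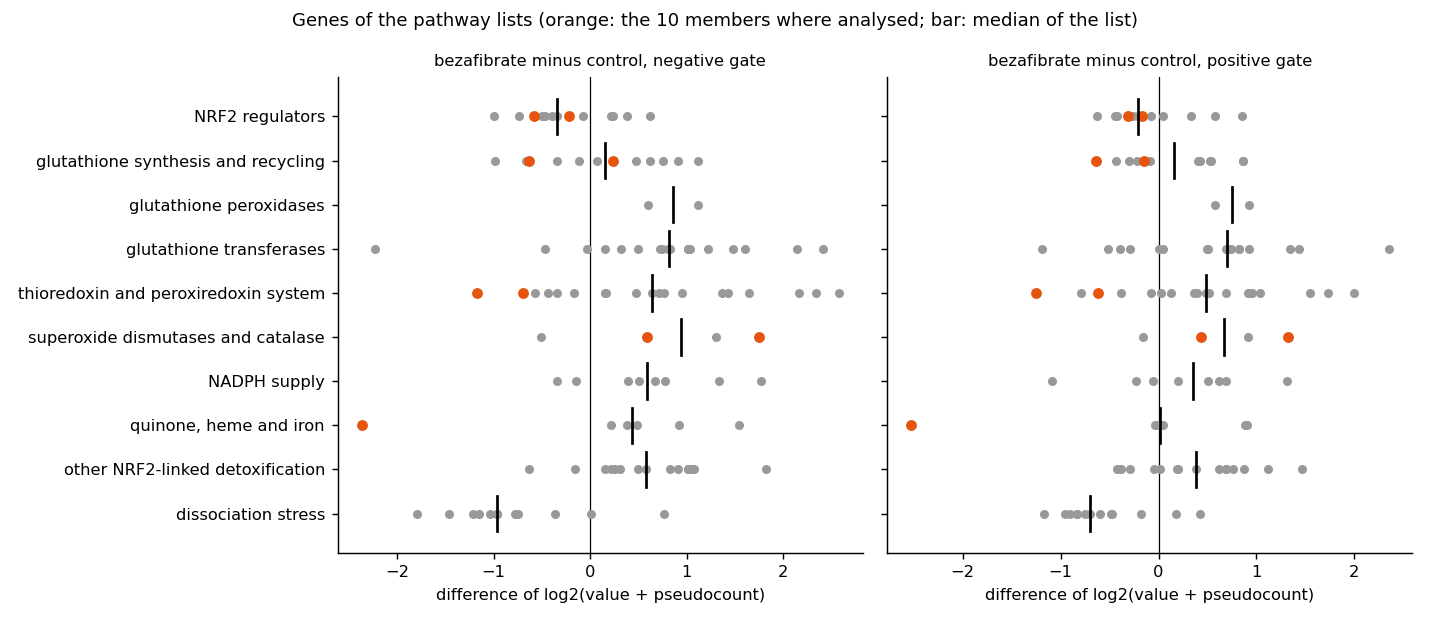
Difference of log2(value + pseudocount), bezafibrate minus control (horizontal axis), of each analysed gene of 9 pathway lists and of the dissociation stress list, in the negative and positive gates; orange points are members and bars are list medians. Hmox1, Srxn1, Txnrd1 and Gclc lie on the lower side of lists whose medians are above 0, while Cat lies at the upper end of its list.

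The control gates differed little in these genes. At 2-fold, 0 of the 9 members analysed were called in control positive against control negative, where 0.334% of all genes were. The member median was 0.06, beside 0.01 for all genes. Hmox1 was 1.16-fold in the positive gate (1.06 to 1.28), Sod1 1.12-fold (1.01 to 1.23) and Srxn1 1.12-fold, with a lower bound that rounds to 1. Keap1 was 0.879-fold (0.726 to 1.06) and Cat 0.986-fold (0.939 to 1.04), and the other 4 members analysed were also within counting error of 1.

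The bezafibrate gates showed Cat and Gclm highest in the negative gate and Nfe2l2 lowest there. At 2-fold, 0 of the 9 members were called in positive against negative, high against positive or high against negative, where 0.256%, 0.145% and 0.267% of all genes were. Cat in the positive gate was 0.737-fold of the negative gate (0.719 to 0.755) and in the high gate 0.791-fold (0.773 to 0.808), and high over positive was 1.07 (1.05 to 1.10). Gclm was 0.793-fold (0.717 to 0.875) and 0.852-fold (0.776 to 0.935) of the negative gate in the positive and high gates. Nfe2l2 was 1.23-fold (1.10 to 1.37) and 1.19-fold (1.07 to 1.32). None of these 3 members was ordered from negative through positive to high. Hmox1 was, at 33.1, 34.2 and 39.6, and its high over negative fold was 1.20 (1.01 to 1.42). The Kupffer cell marker Clec4f, below the filter, was ordered likewise at 0.133, 0.473 and 1.73. The part of other cells in the gate differences was not tested.

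Hmox1, Srxn1, Gclc and Sod1 were nearly level between the bezafibrate positive and negative gates, with folds of 1.03, 1.06, 0.999 and 0.998 and intervals that held 1. Txnrd1 was 1.13-fold there (1.02 to 1.26). In high over positive, Keap1 was 1.22-fold (1.03 to 1.44) and Gclc 1.10-fold (1.04 to 1.16). All these differences lay within the 5th to 95th percentile of genes analysed. Beside them, Rn45s was 99961 in bezafibrate negative, 174815 in positive and 123019 in high, and its part was not tested. The fold of Cat between the positive and negative gates was 0.737 with bezafibrate and 0.986 in the controls, and the difference of these folds was not tested.

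**Figure D5:**
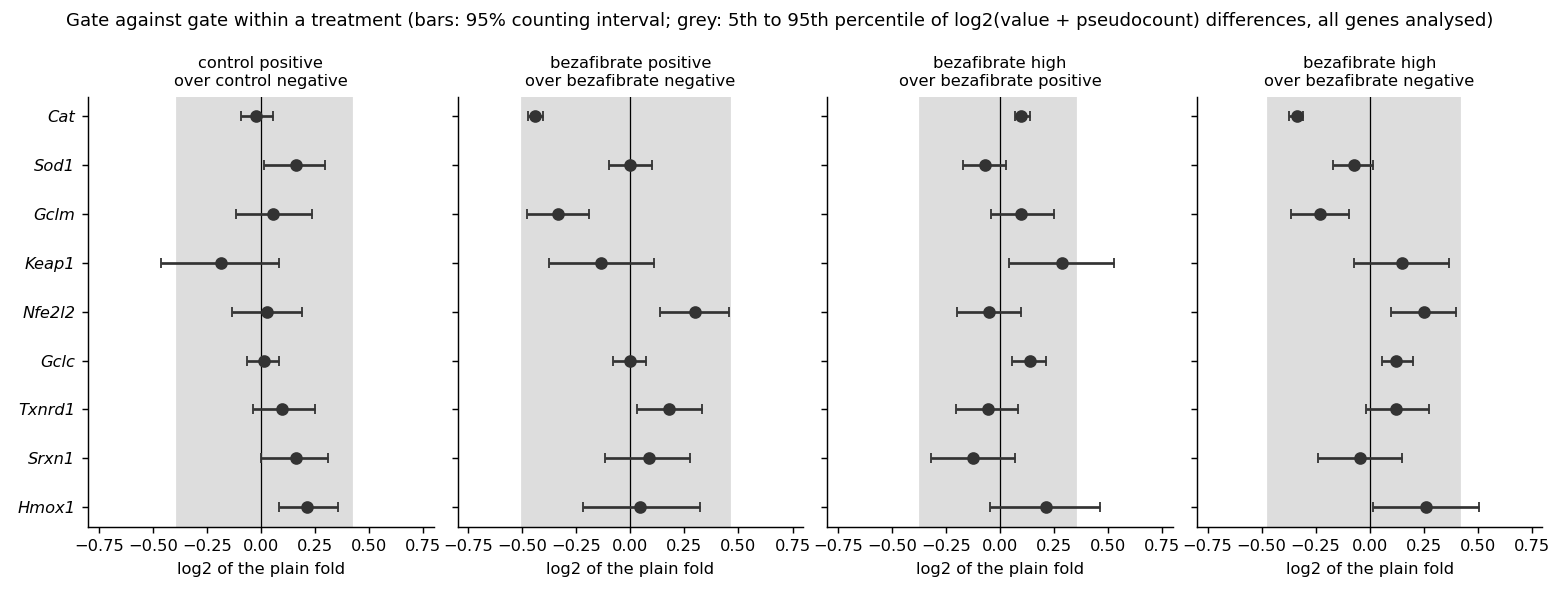
Log2 of the plain fold between gates of the same treatment (horizontal axis) for the 9 members analysed, with 95% counting intervals; the grey band spans the 5th to the 95th percentile of differences of log2(value + pseudocount) of all genes analysed. All points lie inside the bands, with Cat and Gclm on the lower side in both comparisons with the bezafibrate negative gate.

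The genes nearest to Hmox1 and to Cat over the 5 libraries were found by root mean square distance of centred log2 values among 4774 other genes. Nearest to Hmox1 were Mapk15 at a distance of 0.10, Myc at 0.12 and Socs2 at 0.13. Myc had 151 and 163 in the control libraries and 26.0, 31.8 and 28.2 with bezafibrate. Nearest to Cat were Klkb1, Cyp4v3 and Mut, at distances of 0.032, 0.036 and 0.037. Cyp4v3 had 88.3 and 87.3 in the controls and 316, 233 and 241 with bezafibrate. The distance over 5 libraries rests mainly on the step between treatments.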

How the data were processed

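Hepatocyte RNA was measured in 5 libraries, 1 per group, with groups taken from the labels. Per the labels' protocols, a kit for fixed tissue was used for extraction, ribosomal RNA was depleted and the libraries keep strand. The submitters' processing notes name Trimmomatic 0.36, Bowtie2, RSEM and edgeR with build mm10, without roles. The authors deposited normalised signal per gene symbol, whose kind of normalization these sources do not state. In each library 100% of values were whole multiples (tolerance 0.001 reads) of the lowest value above 0, taken as 1 read. Deposited signal values were used as they stand; recovered reads gave the exact Poisson and Clopper-Pearson 95% intervals, which cover counting error only.

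The filter was a mean of 5 pseudocounts. With 1 library per group there was no test between replicates. A fit with edgeR 4.0.16 in R 4.3.3 on recovered reads was added after the data were seen. All else ran in Python 3.11.15 with scipy 1.17.1, pandas 2.3.3 and numpy 2.4.6. Calls and intervals were run on simulated reads that held counting error only. Those reads hold no differences between mice or libraries, so they cannot show how the calls fare against such differences. Coordinates and lengths are from GENCODE for GRCm38 (mm10), where length is the median of protein-coding basic transcripts; 8650 of 8973 genes analysed had a length. Promoter sequence is from RefSeq.

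The members and lists were chosen with earlier results of these data known. Named genes were the members, the 2 most abundant and the most extreme genes of each pathway list, the 3 nearest to Hmox1 and to Cat, and the reference genes Alb, Ehhadh, Cyp4a10, Rn45s and Malat1. Jun, Cd68, Csf1r, Clec4f, C1qa, C1qb, C1qc, Cd5l, Slc40a1, Gss, Gsr, Sod2, Slc7a11, Reln and Alas2 were named after their values were seen. Marker lists also covered sinusoidal endothelial, stellate, cholangiocyte and erythroid cells. A result of the peroxisomal list is not reported here.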

Additional observations from a re-analysis of the deposited data

How the results depend on the processing

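The alternatives were 4 scalings, 2 pseudocounts and 3 filters. Under all of them 3 members were called at 2-fold in the positive gate and 2 or 3 in the negative gate, and 0 in the comparisons between gates of one treatment. Cat, Hmox1 and Srxn1 kept their signs between treatments. Some small differences between gates changed sign under scaling, those of Cat in the controls and of Keap1, Gclc, Sod1, Nfe2l2 and Srxn1 with bezafibrate. Of 486 values of single members under these alternatives, 447 moved by less than their counting interval and 39 by more. Relative to the deposited scaling, making column totals equal shifted the median of all genes by 0.22 in the negative gate and 0.20 in the positive gate for bezafibrate against control, and leaving Rn45s out of the totals shifted it by -0.24 and -0.11. The member median for the negative gate, -0.58, became -0.35 with equal totals, -0.84 with totals without Rn45s, and -0.40 with a filter at 1 or none, which lets in Nqo1. The positive gate median of -0.31 became -0.11 with equal totals. For bezafibrate positive against negative, 0.00 became 0.15 with totals without Rn45s, and for high against positive 0.10 became 0.15 with equal totals. Under the 4 scalings Hmox1 lay between -2.62 and -2.13 in the negative gate and between -2.65 and -2.33 in the positive gate, Cat between 1.49 and 1.98 and between 1.21 and 1.53. The added edgeR fit of treatment and gate over 4 libraries, with 1 residual degree of freedom, takes the treatment by gate difference as error and is no test between replicates; it called 2162 genes higher and 1944 lower of 8973 at an adjusted p of 0.05. No pairing by replicate number was possible because each group has 1 library; the added fit pairs libraries by gate only. Depth limited Nqo1, with 7 to 38 reads.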

Other observations

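Markers of 4 further cell types were summed as a check of the sort. Sinusoidal endothelial markers summed to 31.8 and 21.3 in control negative and positive and to 18.9 to 34.4 in the bezafibrate libraries. Stellate cell markers summed to 105 and 114 in the controls and to 31.4 to 42.4 with bezafibrate, nearly all of it Reln, and no other gene of that list was above 4.72. Cholangiocyte markers stayed at or below 13.1. Erythroid markers summed to 24.1 to 45.5, nearly all of it Alas2, a heme synthesis gene, with the other gene at or below 0.411. Malat1, a nuclear RNA, had 23146 and 22835 in the controls and 15406 to 19155 with bezafibrate.

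Slc7a11, the cystine importer that NRF2 is known to induce, was nearly undetected in these hepatocyte libraries, at 0.205 and 0.431 in the controls and 1.33 to 1.47 with bezafibrate. Cyp4a10, for scale, was 13.5-fold and 7.98-fold higher with bezafibrate in the negative and positive gates.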
